A study of Mus musculus with 2 samples.

Results

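The 10 genes described here stand among 43346 measured: the noncoding RNAs Rn7sk, Rn7s1, Rn7s2, Rpph1, Rmrp and Terc, and the messages of Larp7, Mepce, Hexim1 and Hexim2, whose proteins bind 7SK RNA. They were taken by name, from the gene identifiers that GENCODE M21 (mouse assembly mm10) pairs with these 10 symbols, a rule that uses no measured value. The symbols themselves were chosen with earlier results of these data known. Of 11 identifiers that carry one of the symbols, 10 were in the deposited gene tables, and the other, a second gene also called Rmrp and classed as a lincRNA, was not analysed here. The samples form a single group: midbrain of newborn mice (age 0 days) of the strain B6NTac;B6NCrl/Lap, males and females mixed, with no treatment or engineered allele named in the labels. Replicate 1 came from a pool of 15 mice and replicate 2 from a pool whose size the labels do not give, and the labels call the isolates independent. The libraries kept RNA over 200 bases, had ribosomal RNA removed, carried synthetic spike-in RNAs, and were read in a strand-aware way from both ends of each fragment. With 1 group there is no contrast between conditions, so levels within a library and the match between the libraries are what can be measured, without p-values.

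7SK RNA is an abundant nuclear RNA made by RNA polymerase III that holds the kinase P-TEFb (CDK9 with a T-type cyclin) in an inactive state, which sets how much kinase is free to release paused RNA polymerase II. MEPCE caps its 5′ end, LARP7 covers its U-rich 3′ end, and a pair of HEXIM1 or HEXIM2 molecules binds its 5′ hairpin and blocks the kinase. The other RNAs are the scaffold of the signal recognition particle, which brings ribosomes that make secreted proteins to the endoplasmic reticulum (Rn7s1 and Rn7s2), the catalytic RNA of RNase P, which trims the 5′ ends of tRNA precursors (Rpph1), the related RNA of RNase MRP, which cuts precursor ribosomal RNA (Rmrp), and the template RNA of telomerase (Terc).

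The sequences that matter for what follows are those that carry a known or repeated element or whose length bears on a result, and all are in the DNA letters of the GENCODE M21 transcripts on mm10. The 331-base Rn7sk RNA lies on the minus strand of chromosome 9 (78175303-78175633), and its first 120 bases (chr9:78175514-78175633) and last 40 bases (chr9:78175303-78175342) are shown with the letters GATC, the core that HEXIM proteins contact in the RNA, and the terminal run of T and C in capitals.
Rn7sk, bases 1 to 120: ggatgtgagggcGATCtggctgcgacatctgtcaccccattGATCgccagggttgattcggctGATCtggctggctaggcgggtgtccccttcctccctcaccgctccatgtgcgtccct
Rn7sk, bases 292 to 331: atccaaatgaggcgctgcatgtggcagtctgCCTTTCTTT
GATC, which reads the same on both strands, occurred at bases 13, 42 and 64 of Rn7sk and nowhere else in its 331 bases. Among 137364 transcripts of at least 120 bases, 716 (0.521%) held 3 or more GATC in their first 120 bases. The terminal run spans 9 bases.

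Rn7s1 (chromosome 12, 69159295-69159594, plus strand) had 0 differences over its 300 bases from Rn7s2 (chromosome 12, 69361182-69361481, minus strand), so no read can tell the genes apart.
Rmrp (chromosome 4, 43492788-43493058, minus strand) is printed whole because, with 271 bases, it is the shortest of the 6 RNAs, and its length bears on its values below.
Rmrp, bases 1 to 271: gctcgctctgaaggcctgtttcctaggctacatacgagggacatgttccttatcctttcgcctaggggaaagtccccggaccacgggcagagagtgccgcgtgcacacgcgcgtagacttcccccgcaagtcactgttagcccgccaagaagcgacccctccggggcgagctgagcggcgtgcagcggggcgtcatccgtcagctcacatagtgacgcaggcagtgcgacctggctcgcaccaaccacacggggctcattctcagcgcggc
Rpph1 (chromosome 14, 50807449-50807767, minus strand, 319 bases) held a 21-base stretch that occurs in tandem, starting at bases 182 and 203, shown in capitals within chr14:50807505-50807596.
Rpph1, bases 172 to 263: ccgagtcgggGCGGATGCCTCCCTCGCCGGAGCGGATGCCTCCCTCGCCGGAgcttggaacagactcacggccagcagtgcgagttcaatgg
Terc (chromosome 3, 96414437-96414859, minus strand) is 423 bases in the files' annotation, and its first 60 bases (chr3:96414800-96414859) are shown with the telomere repeat template letters CTAACCC in capitals.
Terc, bases 1 to 60: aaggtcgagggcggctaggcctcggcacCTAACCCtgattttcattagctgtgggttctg
CTAACCC began at base 29 of the GENCODE transcript and at base 3 of the 397-base RNA of RefSeq (GRCm38.p6), which starts 26 bases further in. In 141515 transcripts of at least 60 bases, 231 (0.163%) held CTAACCC in their first 60 bases, and 0.187% held it there on the opposite strand. RefSeq lengths of the other 5 RNAs differed from those of the files by 1 to 6 bases. GC content was 58.0% for Rn7sk, 62.3% for Rn7s1 and Rn7s2, 64.2% for Rmrp and 67.1% for Rpph1 and Terc.

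Rn7sk had the highest level of all genes in both libraries on the TPM scale, the deposited scale of abundance per effective length. Its TPM was 401827 in replicate 1 and 399997 in replicate 2 (400912 ± 1294, SD, n = 2), from 1599204 and 2957298 estimated counts. That equals 3.43% of the counts in replicate 1 (95% Wilson interval 3.42% to 3.43%) and 4.06% in replicate 2 (4.06% to 4.07%), intervals that reflect sampling of reads alone, because amplified copies of a molecule were not marked. The isolates thus gave nearly the same TPM, while the count share was higher in replicate 2. The intervals of the count shares do not overlap, but they leave out variation between pools. The deposited 95% credibility bounds for its TPM ran from 397318 to 398333 in replicate 1 and from 397112 to 397933 in replicate 2, and the deposited TPM lies above both ranges. The bounds surround a second deposited estimate, the posterior mean, which was 397832 and 397528 TPM.

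Rn7s1 and Rn7s2 each carried 224784 estimated counts in replicate 1 and 499165 in replicate 2, an even division of the reads that fit both. TPM was 115511 and 132809 for each gene, next after Rn7sk. The deposited bounds show how little the division is known: 56092 to 190780 TPM for Rn7s1 and 37903 to 172608 for Rn7s2 in replicate 1, with a posterior SD of 77355 counts for each. Of the 10 genes, Rn7sk had a posterior SD of 0.26 and 0.65 counts and the remaining 7 had 0, so the large ambiguity was in the signal recognition particle genes. The sum of the 2 genes is free of the division, and was 231021 TPM in replicate 1 and 265619 in replicate 2, or 0.963% and 1.37% of the counts.

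Rpph1 had 46271 TPM in replicate 1 and 35218 in replicate 2 (40745 ± 7815, n = 2) from 145043 and 206922 counts, the fifth highest TPM in both libraries. Rmrp had 10608 and 18145 TPM (14376 ± 5329) from 7394 and 27835 counts, and ranked 7 and 6. The ranges of these enzymes' RNAs did not overlap. Terc stood far below the other RNAs, at 27.1 and 18.7 TPM (22.9 ± 5.90) from 297 and 380 counts, and ranked 1662 and 2136 among 43346 genes.

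The partner messages were at mRNA levels. Mepce, on chromosome 5 (137781906-137787655, minus strand), had 7.70 TPM in replicate 1 and 8.21 in replicate 2 (7.96 ± 0.361) from 1328 and 2511 counts. Hexim2, on chromosome 11 (103132429-103139876, plus strand), had 12.3 and 8.49 TPM (10.4 ± 2.72) from 967 and 1341 counts. Hexim1, 12703 bases away on the same strand (103116231-103119725), had 3.30 and 3.51 TPM (3.41 ± 0.148) from 814 and 1599 counts. Larp7, on chromosome 3 (127536714-127553349, minus strand), had 3.06 and 1.49 TPM (2.28 ± 1.11) from 375 and 338 counts. Larp7 is thus the lowest of the 4 in both libraries, and the gene of the 4 with the lowest count in both. Because this is bulk tissue, fewer cells that use a gene and less RNA per cell cannot be told apart.

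Of the 10 genes, 10 reached 1 TPM in both libraries, against 27.7% of all genes and 53.8% of protein-coding genes. Because the 10 genes were chosen with earlier results of these data known, this share describes only them. The order by mean TPM was Rn7sk, Rn7s1 with Rn7s2, Rpph1, Rmrp, Terc, Hexim2, Mepce, Hexim1 and Larp7. Within that order Hexim2 and Mepce differed by less than the SD of Hexim2, and Larp7 and Hexim1 differed by 1.08-fold in replicate 1 against 2.27-fold in replicate 2.

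**Figure D1:**
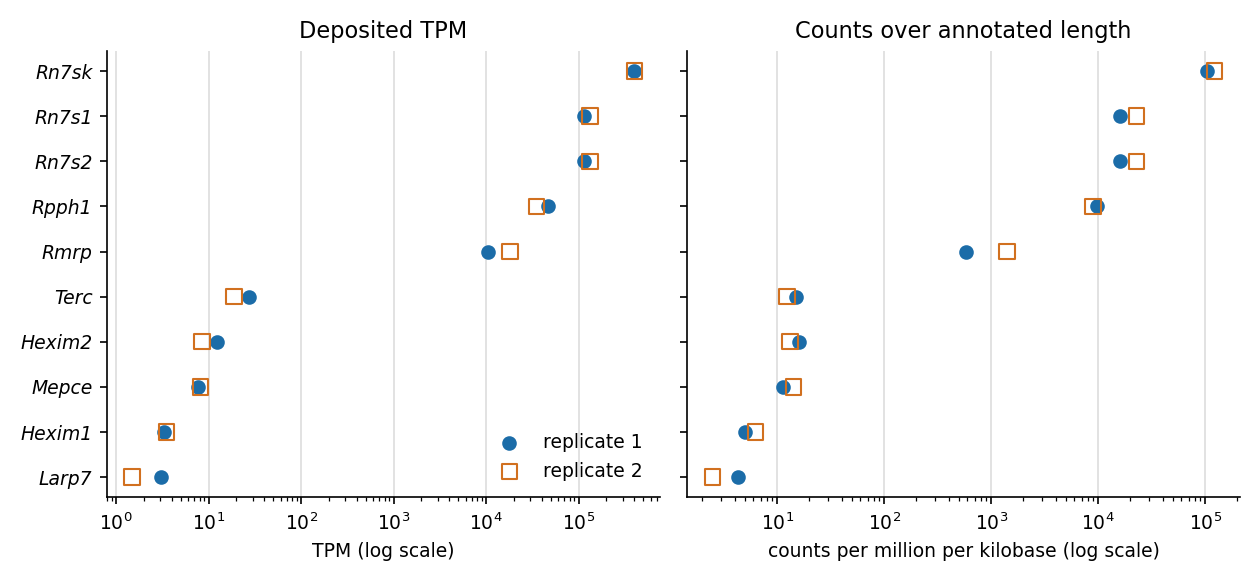
Level of each of the 10 genes in replicate 1 (filled circles) and replicate 2 (open squares), as deposited TPM (left) and as CPM, the count scaled to the library total, per kilobase of annotated length (right), on log axes. The 5 most abundant RNAs lie between 10608 and 401827 TPM, and Terc and the 4 protein genes lie between 1.49 and 27.1 TPM; the step from Rmrp to Terc is smaller on the right.

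How high the short RNAs stand depends on the unit. TPM divides a count by an effective length, the number of positions at which a fragment of the library's size could start. Among genes of long effective length, the median loss of annotated length was 280.2 bases in replicate 1 and 280.3 in replicate 2. For RNAs of 271 to 423 bases little is left: 51.9 and 52.1 bases for Rn7sk, 25.4 and 26.5 for Rn7s1 and Rn7s2, 40.9 and 41.4 for Rpph1, 9.09 and 10.8 for Rmrp, and 143.0 and 142.9 for Terc. Rmrp kept 3.35% of its length in replicate 1 and 3.99% in replicate 2, whereas Hexim1, with 3495 bases, kept 92.0% in both.

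The 6 RNAs together held 69.0% of TPM in replicate 1 and 71.9% in replicate 2 (70.4 ± 2.07, n = 2). They held 4.72% and 5.76% of the counts (5.24 ± 0.737). With counts divided by the annotated length instead, they held 26.6% and 30.1% (28.4 ± 2.50). The 4 partner genes together held 0.00264% and 0.00217% of TPM and 0.00746% and 0.00795% of the counts. All genes with an effective length above 0 and under 60 bases held 69.3% and 73.1% of TPM but 4.73% and 5.78% of the counts, and most of that came from the 5 RNAs other than Terc.

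**Figure D2:**
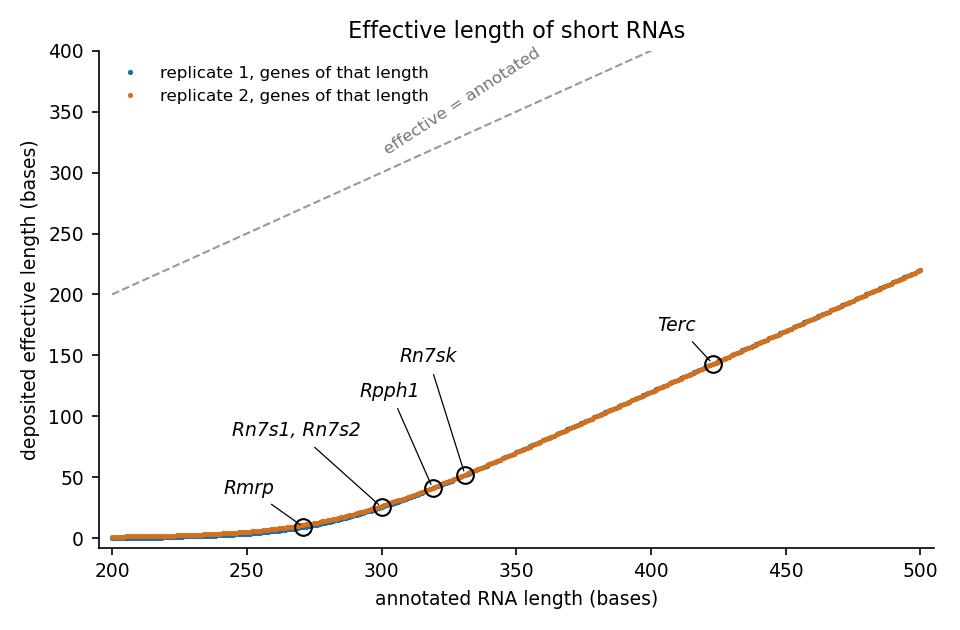
Deposited effective length (y axis, bases) against annotated length (x axis, bases) for genes of 200 to 500 bases in both libraries, with the 6 structured RNAs circled at their values in replicate 1 and a dashed line where both lengths would be equal. The curve flattens toward 0 at the left; Rmrp sits on the bend at 9.09 bases and Terc on the straight part at 143.0.

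On CPM (the count scaled to the library total) per kilobase of annotated length, Rn7sk stayed highest, at 103488 and 122761. Rn7s1 and Rn7s2 had 16050 and 22862 each, Rpph1 9739 and 8913, Rmrp 584 and 1411, and Terc 15.0 and 12.3. Terc then stood beside Hexim2, at 15.9 and 13.2, and Mepce, at 11.2 and 14.2, instead of above them. Hexim1 (4.99 and 6.29) and Larp7 (4.27 and 2.47) stayed lowest. The rank of Terc went from 1662 and 2136 by TPM to 4651 and 5484, and that of Rmrp from 7 and 6 to 33 and 19.

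Pairs of genes were compared within each library, which needs no scaling between the libraries, as the log2 ratio of TPM + 0.1, and a pair counted as different when both libraries put it past 2-fold in one direction. By that rule 8 of 12 pairs were called. The pairs were chosen with earlier results of these data known, and no share over other gene pairs was computed. The count therefore describes only these pairs. Rn7s1 against Rn7s2, 1 of the 12, could not be called, because their shared reads were divided evenly. Rn7sk exceeded Rpph1 by 3.12 in replicate 1 and 3.51 in replicate 2, and exceeded Rmrp by 5.24 and 4.46. Rmrp exceeded Terc by 8.61 and 9.91, and Terc exceeded the Larp7 message by 3.10 and 3.57. Rn7sk RNA exceeded the Larp7 message by 16.96 and 17.94, and no protein was measured. On counts per annotated length the log2 ratios of these pairs kept their direction: 3.41 and 3.78 for Rn7sk over Rpph1, 7.47 and 6.44 over Rmrp, 5.28 and 6.84 for Rmrp over Terc, 1.82 and 2.32 for Terc over Larp7, and 14.56 and 15.60 for Rn7sk over Larp7.

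Rn7sk against the summed Rn7s1 and Rn7s2 was not called, with 0.80 and 0.59. Rpph1 against Rmrp was not called either, with 2.12 and 0.96. Both passed 2-fold in both libraries on counts per annotated length, where the first gave 1.69 and 1.42 and the second 4.06 and 2.66.

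Among the partners, Hexim1 lay below Hexim2 by −1.87 and −1.25, Larp7 below Mepce by −1.30 and −2.39, and Mepce above Hexim1 by 1.20 in each library. Larp7 against Hexim1 gave −0.11 and −1.18 and was not called. Of these 4 ratios, Mepce over Hexim1 differed least between the isolates, and the ratios with Larp7 differed most.

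Part of these partner ratios rests on short transcripts with few reads. Hexim2 had 5 transcripts in the files, of which 4 carried at least 10% of the gene in some library. Hexim2-201, of 1910 bases, carried 54.5% of the gene in replicate 1 and 43.9% in replicate 2, from 840.61 and 862.62 estimated counts. Hexim2-202, of 1221 bases, carried 3.55% and 40.4%, from 31.63 and 458.39 counts. Hexim2-203, of 654 bases, carried 22.0% and 0.89%, from 77.76 and 3.99 counts. Hexim2-204, of 370 bases with an effective length of 90.2 and 90.0, carried 19.9% and 14.8% of the gene from 17 and 16 counts. Hexim2-201 thus led in both isolates while the rest of the mix differed, and the division of reads among overlapping transcripts is an estimate.

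Transcripts of at least 1000 bases, a subset chosen after the values were seen, gave Hexim2 a TPM of 7.16 in each library. On that basis Hexim1 over Hexim2 was −1.09 and −1.01 and still called. Mepce had Mepce-201 (3128 bases) at 77.0% and 73.4% and Mepce-202 (524 bases) at 21.7% and 26.6%, the latter from 31.23 and 75.68 counts, while a retained-intron transcript carried 1.27% and 0%. With Mepce-201 alone, at 5.93 and 6.03 TPM, Mepce over Hexim1 fell to 0.83 and 0.76 and Larp7 over Mepce was −0.93 and −1.95, and neither pair was called. The other 8 genes had 1 transcript each in the files.

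**Figure D3:**
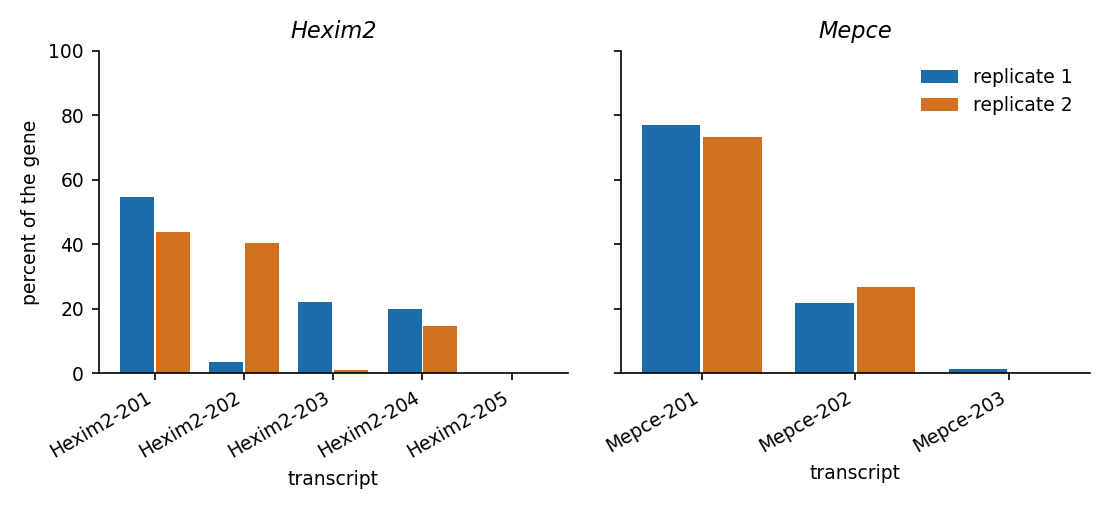
Percent of each gene carried by each annotated transcript (y axis) of Hexim2 (left) and Mepce (right) in replicate 1 (blue) and replicate 2 (orange), as deposited, with no error available. Hexim2-202 went from 3.55% to 40.4% and Hexim2-203 from 22.0% to 0.89% between the libraries, while Mepce-201 stayed at 77.0% and 73.4%.

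The libraries were then compared gene by gene, as the log2 ratio of replicate 2 over replicate 1 of estimated counts, rounded and scaled by TMM, which fits 1 factor per library. Of 18554 genes whose counts summed to 10 or more, 9.21% were past 2-fold higher in replicate 2 and 7.76% past 2-fold lower. Of the 10 genes described here, 1 was past 2-fold higher, Rmrp, and 0 were past 2-fold lower, and since pools are the units, these ratios describe a pair of isolates and carry no p-value. Rmrp had 158 CPM in replicate 1 (95% Wilson interval 154.8 to 162.0) and 382 in replicate 2 (378.0 to 387.0), a log2 ratio of 1.27 on library totals. With TMM scaling its log2 ratio was 1.31 (2.48-fold). Among 10282 genes whose counts summed to 1000 or more, 54 (0.525%) were past 2-fold higher, and 0.204% had a larger ratio in either direction than Rmrp. Over all 18554 genes, those with few counts included, 13.3% had a larger ratio. The SD of the log2 ratio over the well-counted genes was 0.31. Over 24 spike-ins with as many counts, scaled by the spike-in total instead of TMM, it was 0.24 around a median of 0.05.

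The rest lay inside 2-fold. Rn7s1 and Rn7s2 had a log2 ratio of 0.55, Hexim1 0.37, Mepce 0.31, Rn7sk 0.28, Rpph1 −0.09, Hexim2 −0.13, Terc −0.25 and Larp7 −0.75. Larp7 had 8.03 and 4.64 CPM, a log2 ratio of −0.79 on library totals. With TMM scaling it was 1.69-fold lower in replicate 2, and 22.1% of all 18554 genes had a larger ratio in either direction. Among the 10282 well-counted genes, to which Larp7 does not belong, 2.04% had one. On the deposited TPM, the median gene shifted by −0.25, and Rmrp had a log2 ratio of 0.77, which is 1.03 relative to that median, while Larp7 had −0.99, or −0.74 relative to it. On the same scale Rn7sk had −0.01, or 0.25 relative to the median.

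**Figure D4:**
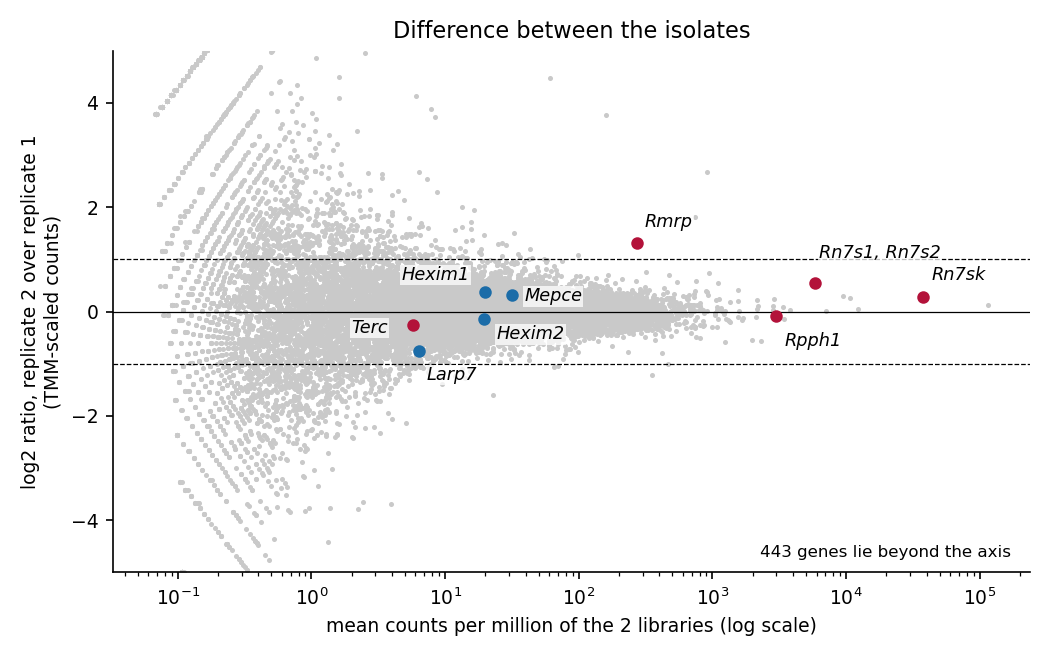
Log2 ratio of replicate 2 over replicate 1 of TMM-scaled counts (y axis) against mean CPM (x axis, log scale) for 18554 genes (grey), with structured RNAs in red, 7SK partner genes in blue, and dashed lines at 2-fold; 443 genes lie beyond the axis. Rmrp at 1.31 is the one marked point outside the lines, above the cloud of genes at its count level.

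Length was set beside this difference. Rmrp is the shortest of the 6 RNAs, and its effective length was larger in replicate 2 than in replicate 1, a log2 ratio of 0.25. Taking that ratio off left 1.06 for Rmrp, a calculation added after the data were seen. Structured RNAs of the classes snRNA, snoRNA, scaRNA, ribozyme and misc_RNA and counts summing to 50 or more were also split by length afterwards. Of 21 genes under 290 bases, Rmrp included, 20 were higher in replicate 2 and 19 past 2-fold, with a median log2 ratio of 1.84. Of 10 genes of 290 bases or more, 5 were higher, 0 past 2-fold higher and 1 past 2-fold lower (Gm27998, 66.77 and 0 counts), with a median of 0.00. Several of the short genes are copies between which reads were divided evenly, so the genes in these counts are not separate measurements. Some short genes reached the summed count of 50 only or mainly through replicate 2, such as Gm25939 (0 and 64 counts) and Rnu3b2 (11.5 and 93.5). Gm27998 reached it only through replicate 1. The filter thus partly shapes these numbers. The part of length in the ratio of Rmrp was not tested.

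Values of the named structured RNAs outside the 10 genes follow, and all those with a log2 ratio except Snord17 are among the genes just split by length. Of 31 fixed names, 29 were measured, Bc1 and Rnu4atac being not analysed here, and 4 reached 1 TPM in both libraries, against 27.7% of all genes. Most of the 29 had an effective length of 0 in replicate 1, where TPM is listed as 0 whatever the count. Their share past 1 TPM was therefore limited by length and cannot be read as low expression. Scarna10, which guides modification of spliceosomal RNA, had 4323 and 7033 counts (1218 and 1062 TPM) with a log2 ratio of 0.10. Scarna2, another such guide, had 4699 and 3812 counts (457 and 201 TPM) with −0.91, and Scarna13 had 96 and 233 counts (117 and 133 TPM) with 0.67. Snora73b, a small nucleolar RNA of 205 bases, had 101 and 345 counts, yet is listed at 0 TPM in replicate 1, where its effective length was 0, and at 1828 TPM in replicate 2, where it was 1.33.

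Snora73a, of the same length, had 25 and 187 counts and is listed at 0 and 991 TPM. Rnu3b2 and Rnu3b4, genes of the U3 RNA that helps to process ribosomal RNA, had 11.5 and 93.5 counts each and are listed at 0 and 384 TPM. The spliceosomal RNA genes Rnu2-10 (13.36 and 133 counts) and Rnu1a1 (28.43 and 155.43 counts) are listed at 0 TPM in both libraries, with an effective length of 0 in both. So are Rnu1b1 and Rnu1b2, with 0 and 2.05 counts each, and the Y RNA gene Rny1, with 0 and 2 counts. In all, 6274 genes in replicate 1 and 6030 in replicate 2 had an effective length of 0, and 47 and 51 of them held counts. Snord17 had 1 and 41 counts. Of the 10 named RNAs whose counts summed to 10 or more, 7 were past 2-fold higher in replicate 2 and 0 past 2-fold lower. Among all genes the shares were 9.21% and 7.76%. All 7 RNAs are shorter than Rmrp, whereas most of all genes are longer, so those shares are not a fitting comparison. Snord17 passed the count limit only through replicate 2. Rnu3b2 and Rnu3b4 have equal counts and are not separate measurements. The number 7 therefore describes only these RNAs.

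**Figure D5:**
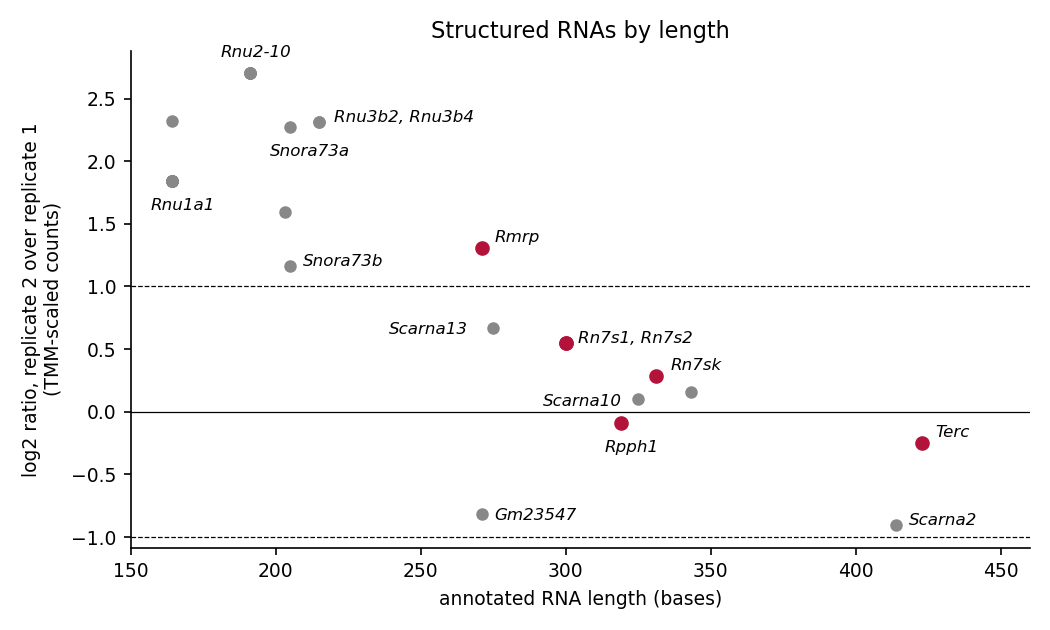
Log2 ratio of replicate 2 over replicate 1 of TMM-scaled counts (y axis) against annotated length (x axis, bases) for structured RNAs under 500 bases with counts in both libraries and a summed count of at least 50, with the genes described here in red and dashed lines at 2-fold. Points under 250 bases lie at 1.16 or above, Rmrp lies at 1.31 and Scarna13 at 0.67, the snoRNA gene Gm23547 is apart at −0.82, and those over 400 bases lie at −0.25 and −0.91.

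Marker genes of other tissues and cell types were compared between the isolates in the same way. Of 4 markers of hindbrain and spinal cord, 0 reached 1 TPM in both libraries and 3 were past 2-fold higher in replicate 2, with summed TPM of 0.59 and 6.31 (Hoxd3 had 0 and 174 counts, Hoxa5 2 and 432). Of 3 choroid plexus markers 2 were past 2-fold higher in replicate 2, with summed TPM of 15.9 and 165. Nearly all of that sum was Ttr, which carries thyroid hormone (14.4 and 163 TPM), beside Folr1 with 1.05 and 2.19 and Kl with 0.46 and 0.43. Proliferation markers, 3 of 3 detected, summed to 8.35 and 12.4 TPM, with log2 ratios of 0.45 to 0.74 and 0 past 2-fold. Red blood cell markers summed to 273 and 303 TPM, with 1 of 3 past 2-fold higher in replicate 2 (log2 ratios of 1.02 for Alas2, 0.87 for Hba-a1 and 0.04 for Hbb-bs). Midbrain markers were 7 of 7 detected (4.51 to 26.9 TPM) and summed to 85.1 and 80.8. Neuron, meningeal, endothelial and microglial markers were all detected and within 2-fold. The part of the hindbrain, choroid plexus and red blood cell markers in the ratio of Rmrp was not tested.

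Where the genes lie bears on whose reads were counted, since the labels call the libraries stranded but whether the counting used strand is not given in the sources used here. Rmrp overlaps Ccdc107, which runs on the opposite strand and had 16.5 and 13.6 TPM from 412 and 770 counts, fewer than the 7394 and 27835 counts of Rmrp. On the same strand it overlaps the lincRNA gene also called Rmrp, which has no values here. Reads of that lincRNA could not be told apart from those of Rmrp where they overlap. The flanking genes of Rmrp were Sit1, 9053 bases away with 0 counts in both libraries, and Arhgef39, 3083 bases away, with 28 and 235 counts. Rpph1 lies within Ccnb1ip1 on the same strand, which had 0 counts in both libraries (allowing up to 3 counts, or 0.0643 and 0.0412 CPM), and starts 73 bases from Parp2 on the opposite strand (2.98 and 2.87 TPM). Parp2 encodes a DNA damage enzyme.

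Rn7sk lies 3195 bases from the kinase gene Ick (11.1 and 10.3 TPM) and 280 bases from the lincRNA C920006O11Rik (1.21 and 0.80 TPM), both on the opposite strand. Rn7s1 lies 108 bases from Rps29, a ribosomal protein gene on the opposite strand (32.3 and 26.7 TPM), and 9219 bases from Lrr1 (0.05 and 0.28 TPM). It overlaps the annotated miRNA genes Gm47287 and Gm47295, and Rn7s2 overlaps Gm47299 and Gm47305, none of them analysed here. Rn7s2 lies 4016 bases from Nemf (3.99 and 2.67 TPM). The nearest genes to Terc with values were Gm21960, 1075 bases away with 0 and 1 counts, and the snRNA gene Gm24136 with 0. No flanking or overlapping gene with a value reached the TPM of the structured RNA it neighbours.

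Larp7 holds Mir302a, Mir302b, Mir302c, Mir302d and Mir367, a cluster of miRNAs of pluripotent cells, on its opposite strand, and all 5 had 0 counts. The libraries were selected for longer RNA, so these counts cannot show whether the short miRNAs were present or absent. Zgrf1 starts 139 bases from Larp7 (0.45 and 0.23 TPM). Mepce is flanked by Zcwpw1, 142 bases away (1.58 and 1.05 TPM), and Ppp1r35, 1795 bases away (6.80 and 7.64 TPM). Hexim1 and Hexim2 are flanked by Acbd4 (4.45 and 4.19 TPM) and Fmnl1 (2.75 and 3.12 TPM).

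Both abundant RNA families have annotated copies in the genome. Among genes of class misc_RNA, 12 aligned to Rn7sk and 3 to Rn7s1 over at least 80% of the copy at 80% identity or more. All 15 were measured and all had 0 counts in both libraries. The closest copy of Rn7sk was Gm23037 on chromosome 17, with 89.2% identity, and of Rn7s1 Gm24514, with 94.9%. How reads that fit a copy were assigned was the choice of the quantification, whose program the sources used here do not give.

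Messages of the protein machinery around these RNAs were read from 8 lists, which were also chosen with earlier results of these data known. List genes are named by their proteins, but no protein was measured. Of 89 names, with Srpr and Srpra naming 1 gene, 86 were measured and 80 of these reached 1 TPM in both libraries, against 53.8% of protein-coding genes, with a median of 7.19 and 5.58 TPM against 1.91 and 1.61 for all protein-coding genes. Of 85 whose counts summed to 10 or more, 1 was past 2-fold higher in replicate 2 (Ell3, 0 and 13 counts) and 0 lower. Among 15726 protein-coding genes that passed the same count limit, 1074 were past 2-fold higher and 726 lower. The median log2 ratio was −0.07 for the list genes against 0.01 for all protein-coding genes.

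Messages of P-TEFb were 3 of 3 detected, with the kinase gene Cdk9 at 17.9 ± 2.49 TPM and the cyclin genes Ccnt1 at 9.12 ± 3.54 and Ccnt2 at 7.68 ± 3.00 (n = 2 for these and all means that follow). Factors that release P-TEFb from 7SK or exchange with it were 9 of 9, led by the splicing factor Srsf2 (45.6 ± 13.6) and the RNA binders Hnrnpa1 (30.6 ± 9.28), Hnrnpr (19.7 ± 3.89) and Syncrip (18.2 ± 4.25). Of elongation and pausing factors 11 of 13 were detected, led by the super elongation complex scaffold Aff4 (22.9 ± 5.61) and its partner Mllt1 (21.4 ± 0.594), with the pausing factors Nelfb at 19.0 ± 3.87 and Supt5 at 17.0 ± 1.10. Ell2, an elongation factor, had 0.76 and 0.62 TPM, and Ell3 had 0 and 13 counts (0 and 0.06 TPM), the list gene past 2-fold. The 4 genes of the 7SK particle's own proteins were thus all below Cdk9 in mean TPM.

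Proteins of the signal recognition particle and its receptor were 8 of 9 detected, with the Alu-domain pair Srp14 at 33.7 ± 0.820 and Srp9 at 14.5 ± 0.757, the GTPase gene Srp54c at 26.1 ± 3.70 and Srp72 at 15.0 ± 3.07, while Srp54a had 0 and 0.01 TPM. Reads could be divided among the Srp54 copies, so those values are uncertain, and Srp54b was not analysed here. The receptor alpha subunit, whose symbols Srpr and Srpra name 1 gene, had 9.21 and 7.27 TPM. RNase P and MRP proteins, most of which both enzymes share, were 10 of 11, led by Pop7 (16.9 ± 4.89), Pop4 (13.7 ± 3.11), Rpp21 (9.55 ± 1.14) and Rpp25l (7.73 ± 0.629). Rpp40 had 0.76 and 1.12 TPM. Of the 11 messages 0 were past 2-fold between the libraries, against 9.21% of all genes higher in replicate 2 and 7.76% lower. The median log2 ratio of the 11 messages was 0.05, beside 1.31 for the Rmrp RNA, and their proteins were not measured.

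Messages of telomerase proteins were 7 of 8 detected, led by those of the H/ACA proteins that stabilise Terc, Nop10 (18.2 ± 2.96), Nhp2 (9.44 ± 2.31) and Dkc1 (3.93 ± 1.79), and by Wrap53 (3.24 ± 0.502), whose protein brings telomerase to Cajal bodies. The fourth H/ACA protein gene, Gar1, had 0.45 and 0.34 TPM, and Tert, the catalytic subunit, had 1.27 and 1.55. La-family genes, relatives of Larp7, were 6 of 6, led by Larp4b (21.7 ± 2.51), Ssb (11.6 ± 3.01), Larp1 (10.4 ± 1.29) and Larp6 (7.96 ± 1.58). These 4, named for their high mean TPM, all exceeded Larp7 in both libraries, as did Larp4 (5.65 and 4.15 TPM). Larp1b (2.64 and 2.45 TPM) lay below Larp7 in replicate 1 and above it in replicate 2. RNA polymerase III and its factors were 26 of 27, led by its repressor Maf1 (44.2 ± 4.77), the initiation factors Gtf3c4 (15.0 ± 4.11) and Gtf3c1 (14.1 ± 2.55), and Snapc2 (12.9 ± 0.735) of the complex that starts genes such as Rn7sk. Polr3g had 2.04 and 0.55 TPM, and Gtf3c2 was not analysed here.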

How the data were processed

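Total RNA-seq values from 2 libraries of 1 group were used, with sample groups taken from the labels, and no groups were compared. The deposited expected counts (estimated counts that need not be whole), TPM and FPKM per gene and transcript were made on mm10 with GENCODE M4 from alignments to the transcriptome, per the submitters' notes deposited with the samples. The alignment and quantification programs were not given in the sources used here. Each transcript's percent of its gene was taken as the authors deposited it, and the deposited credibility bounds are a score used only to describe uncertainty. FPKM values as deposited entered no result. Replicate 1 had a depth of 46685706 counts (46119077 on genes) and replicate 2 of 72779229 (72011312 on genes), and a count of 0 allows up to 3 counts.

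Symbols, classes, coordinates and printed sequences came from GENCODE M21 (mm10), which matched 42462 of 43346 gene identifiers. Detected means at least 1 TPM in both libraries. Pairs used log2(TPM + 0.1). Between libraries, counts were rounded and scaled with edgeR 4.0.16 (TMM), over genes whose counts summed to 10 or more, with a prior count of 0.5, and past 2-fold was called; DESeq2 1.42.0 size factors, library totals, spike-ins, other thresholds, units and leaving out a library were alternatives. The ratio script was checked on simulated data. Copies were found with blastn 2.17.0 on transcript sequences, since no genome was used here. The members, lists and pairs were chosen with earlier results of these data known. The rule for named genes took all 10 members, up to 4 genes per list with the highest mean TPM and those below 1 TPM in both libraries, up to 6 other structured RNAs with the highest summed count and those with counts but an effective length of 0, transcripts with at least 10% of a gene, and overlapping or nearest genes. Other genes named (Snord17, Hoxd3, Hoxa5, Ttr, Folr1, Kl, Alas2, Hba-a1, Hbb-bs, Srpr, Tert, Rpp40, Polr3g, Larp4, Larp1b, Gm23547, Gm27998 and the closest copies) were chosen after their values were seen. One sequence is not reported here. Likeness of pattern was not computed, since 2 libraries give none.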

Additional observations from a re-analysis of the deposited data

How the results depend on the processing

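No paired analysis was possible because the labels define 1 group, so no groups share replicate numbers. The mean share of the 6 structured RNAs was 70.4% of TPM, 5.24% of the counts and 28.4% of counts per annotated length, and 69.0% to 71.9% with either library alone. The number of the 10 genes past 2-fold between the libraries was 1, 0 on deposited TPM (where Rmrp had 0.77) and 2 at a threshold of 1.5-fold (Rmrp and Larp7). It was 1 with DESeq2 size factors, library totals, spike-in counts and no count filter, and in the 2 alternatives added after seeing the data (effective length removed, TPM relative to the median gene). The log2 ratio of Rn7sk turned to −0.0066 on deposited TPM, a scale on which the median gene shifted by −0.25; the cause was not tested. Called pairs numbered 8, and 9 with either library alone, which asks for a call in fewer libraries; detected members stayed at 10, and detected list genes went from 80 to 81 with either library alone. Each library has 1 value per gene and n = 2, so SDs are rough, Terc, Larp7 and the transcripts with under 100 counts have the least depth, and counts of Rn7s1 against Rn7s2 are not known separately.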
